A study of Mus musculus with 5 samples.

Results

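The doublecortin family was taken as 4 mouse genes, doublecortin (Dcx) and the doublecortin-like kinases Dclk1, Dclk2 and Dclk3. Members were the genes whose symbol in the deposited count tables equalled 1 of these names, which found 4 genes among the 55385 listed. All 4 members passed the filter on low counts and were among the 19768 genes tested.

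Doublecortin binds and stabilises microtubules through its doublecortin domains and is made by migrating and newborn neurons, in the adult hippocampus mainly by immature granule cells of the dentate gyrus. Dclk1 and Dclk2 join the same domains to a kinase domain related to the calcium/calmodulin-dependent kinases, and both are also made by mature neurons. A start inside the Dclk1 gene gives shorter transcripts that lack the doublecortin domains. Dclk3 is the most distant of the kinases.

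Total RNA of the hippocampus was sequenced from male C57/bl6 mice aged 3 months, to follow gene expression after strong neuronal activity. The control group was labelled control, is taken as untreated here and gave 1 library. The labels and the study's account of the sequencing do not say whether vehicle was injected. The other groups received kainic acid, a glutamate receptor agonist that triggers seizures, at 20 mg/kg into the peritoneum, and hippocampi were taken at 1 h (1 library), 4 h (2 libraries, replicates 1 and 2) or 8 h (1 library) after seizures began; the study kept only mice with severe seizures. Whether a library came from 1 mouse is not given in the sources used here. Counts assigned to genes came to between 16612225 in the library at 8 h and 19109204 in replicate 2 at 4 h. The control, 1 h and 8 h groups had no replicate, so differences between conditions and between libraries cannot be told apart there. Where the 4 conditions are kept apart, every p-value below rests only on the spread between the 4 h pair. That pair differed by more than sampling noise (chi-square 32.1 per degree of freedom). Whether its 2 libraries came from different mice is not given.

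The labels were checked with 12 activity-regulated genes. All 12 had values at least 1.5-fold above the control in the 1 h and 4 h comparisons (9.65% and 16.3% of all genes tested), 0 of 12 passed an adjusted p of 0.05 in edgeR's quasi-likelihood test, and at 8 h 5 were higher (12.7%) and 3 lower (8.11%); the medians were 3.97, 3.59 and 0.44 on the log2 scale. Taken by itself, replicate 1 at 4 h had 12 of 12 at least 1.5-fold above the control, and replicate 2 had 8, without Junb, Egr1, Npas4 and Nr4a1. Fos, an immediate early transcription factor, had 215 counts in the control, 17563 at 1 h, 8743 and 1331 in 4 h replicates 1 and 2, and 302 at 8 h. Npas4, which had the largest value of the list, had 78, 12204, 2189, 93 and 90 counts in the same order, and Egr2, which had the lowest, had 48, 3726, 334, 74 and 21. The abundant genes Homer1 and Arc had log2 fold changes of 2.62 and 3.78 at 1 h, 3.56 and 3.58 at 4 h and 0.50 and 0.04 at 8 h. Markers of CA pyramidal and dentate granule neurons had counts in every library.

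Replicate 1 at 4 h stood apart from the other libraries in its markers of neighbouring tissue. Levels are given as normalized CPM, counts scaled by library size and TMM factors. The 6 choroid plexus markers summed to 4009 normalized CPM in the control, 1698 at 1 h, 30.1 and 4284 in 4 h replicates 1 and 2, and 3102 at 8 h; the most abundant of them, Ttr, had 275 counts in replicate 1 against 75088 in replicate 2. The 5 thalamus markers summed to 142 in the control, 163 at 1 h, 533 and 222 in the 4 h replicates, and 114 at 8 h, with Rora as the most abundant gene. No marker of either list was at 0 in the control. The part of these differences in the results below was not tested, and the members are therefore also given for each 4 h replicate. Log2 fold changes and list counts at 4 h come from the fit of the pair unless a replicate is named. Of all genes tested, 20.2% were at least 1.5-fold higher and 15.9% lower than the control in replicate 1 by itself, against 12.7% and 9.75% in replicate 2. Genes called most abundant in a list are so over the 5 libraries together, and the order can differ in a single library.

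Dclk1 (ENSMUSG00000027797.15) lies on the plus strand of chromosome 3 from 55242364 to 55539068 in GRCm38, where GENCODE M21 annotates 15 transcripts, 11 of them protein coding. RefSeq gives it a start at the 5′ end and another 219364 bases downstream. The window before the inner start holds no exon base and is spanned by 5 transcripts that begin upstream, so it is intronic to them. Both windows of 250 bases before a start (RefSeq, GRCm38.p6) are shown because the deposited counts join the transcripts of both starts. Capitals mark matches to TGANTCA, a looser form of TGAGTCA, the letters bound by AP-1 factors such as Fos.
Outer start, chr3:55242114-55242363, plus strand: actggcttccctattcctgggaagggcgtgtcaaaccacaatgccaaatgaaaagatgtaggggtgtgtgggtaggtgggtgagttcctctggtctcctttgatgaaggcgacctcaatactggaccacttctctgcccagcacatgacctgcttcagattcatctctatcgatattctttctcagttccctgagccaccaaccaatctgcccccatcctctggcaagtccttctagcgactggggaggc
Inner start, chr3:55461478-55461727, plus strand: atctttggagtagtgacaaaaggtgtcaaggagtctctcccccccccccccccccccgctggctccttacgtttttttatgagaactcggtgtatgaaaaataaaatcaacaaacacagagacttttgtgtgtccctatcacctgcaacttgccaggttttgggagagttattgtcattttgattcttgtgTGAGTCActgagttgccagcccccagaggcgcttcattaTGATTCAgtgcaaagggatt
The inner window held 2 matches, TGAGTCA and TGATTCA, which begin 59 and 20 bases before the start, and the outer window held 0. Of 32851 windows of the same length, 6.75% held at least 1 match and 0.338% held at least 2. The stricter TGAGTCA, within TGANTCA, had 1 match in the inner window, 0 in the outer window and at least 1 in 4.46% of all windows. The window of Dclk2 and the 2 windows of Dcx held 0 matches to TGANTCA on either strand, and no window of the family held TGACGTCA (1.55% of all windows), its shorter core TGACG (17.8%, overlapping the former) or GCGTGGGCG (0.536%). No window for Dclk3 was used here. A match is a description of the letters and not a binding site, and gene counts do not show which start was used.

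Dclk1 had the most counts and the highest level per length of the family in every library, and was above the control in all 4 kainic acid libraries, which held for 20.6% of genes tested. It had 14471 counts in the control (727 normalized CPM), 17862 at 1 h (1016), 29906 in replicate 1 at 4 h (1776), 21771 in replicate 2 at 4 h (1151) and 20906 at 8 h (1193). By count it ranked 96 among all genes in the control, 68 at 1 h, 20 and 52 in replicates 1 and 2 at 4 h, and 36 at 8 h. The control library was the lowest, and the 8 h library lay between the 4 h replicates. The ratio to the control was 1.40 at 1 h (95% interval 1.37 to 1.43), 2.44 (2.39 to 2.49) and 1.58 (1.55 to 1.62) in the 4 h replicates, and 1.64 at 8 h (1.61 to 1.68); these exact binomial intervals cover counting error only. In bulk RNA, more cells of a type and more RNA per cell cannot be told apart.

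Replicate 1 at 4 h had 1.54 times the Dclk1 level of replicate 2 (1.52 to 1.57), and 9.46% of the 11646 genes with a mean of at least 100 counts were at least as far apart in that pair. The mean of the pair was 1464 ± 442 normalized CPM (SD, n = 2). In the edgeR fit over all genes, the 1 h library gave a log2 fold change of 0.48 ± 0.33 (SE), the 4 h pair gave 1.01 ± 0.30 and the 8 h library gave 0.71 ± 0.33. Its adjusted p (edgeR's quasi-likelihood test, Benjamini-Hochberg over all genes tested) was 1, 0.352 and 1.00 in that order, so Dclk1 did not pass the threshold of 0.05 at any time. At 4 h, 7.67% of genes tested had a higher log2 fold change. With replicate 2 as the only 4 h library the log2 fold change was 0.66, and with replicate 1 it was 1.29.

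**Figure D1:**
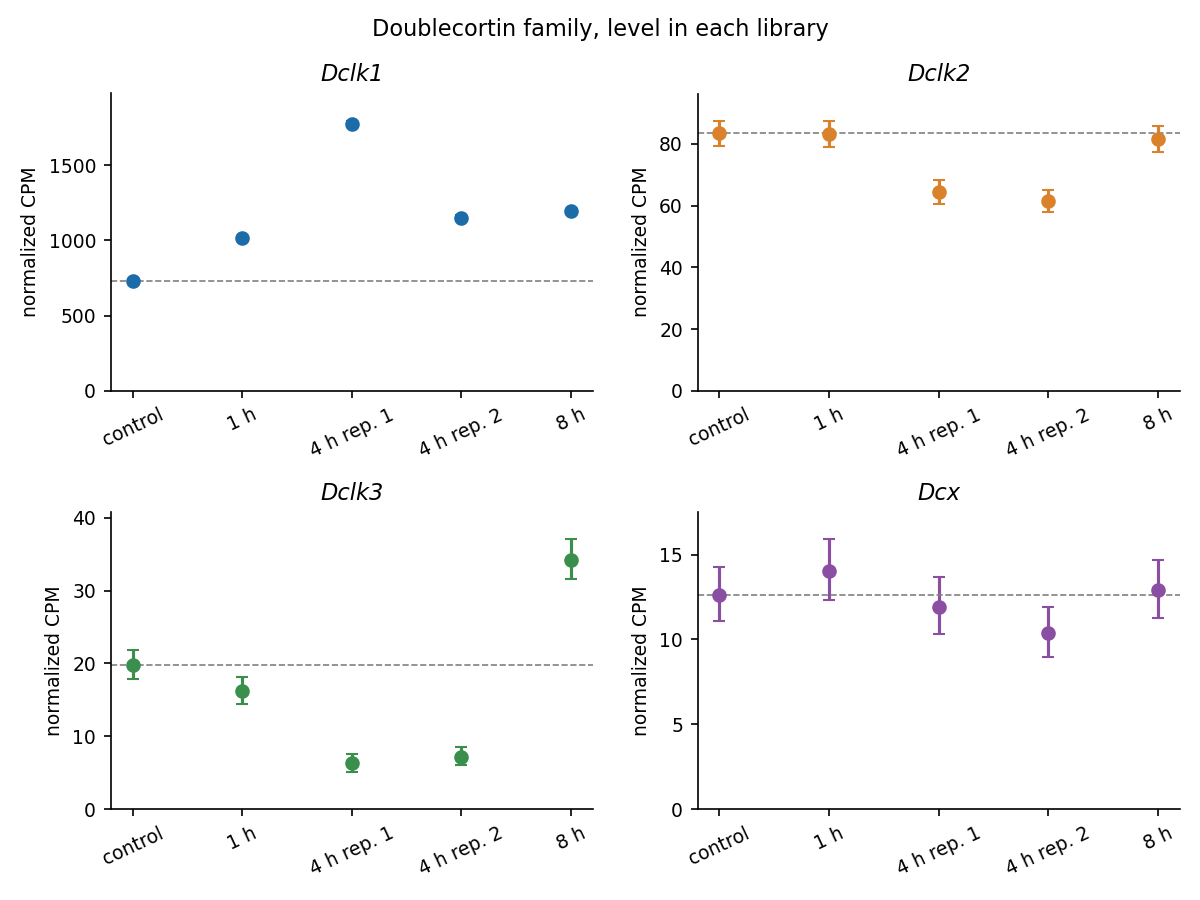
Level of each member in normalized CPM (y axis) in the 5 libraries (x axis); bars are exact Poisson 95% intervals of the count, and the dashed line is the control. Dclk1 was above the control in all 4 kainic acid libraries, Dclk3 was lowest in both 4 h replicates and highest at 8 h, and Dcx stayed between 10.4 and 14.1.

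The introns of Dclk1 hold 4 other annotated genes on the same strand, all of them counted here, and none shares an exon base with it. Gm42608, the most abundant, had 95 counts in the control, 143 at 1 h, 326 and 185 in 4 h replicates 1 and 2, and 185 at 8 h. Gm42607 had 29, 59, 99, 48 and 48 counts in the same order, Gm19817 had 42, 62, 96, 34 and 45, and the small nuclear RNA gene Gm25132 had 2, 10, 12, 3 and 8. Summed, the 4 genes were 1.85 times the control at 1 h (1.52 to 2.25), 3.75 times in replicate 1 at 4 h (3.15 to 4.49), 1.69 times in replicate 2 (1.39 to 2.06) and 1.93 times at 8 h (1.59 to 2.35). Without Gm25132, which had under 10 counts in the control, these ratios were 1.80, 3.71, 1.69 and 1.90. The sum was thus above the control in every kainic acid library, as Dclk1 was. The ratio of the sum was higher than that of Dclk1 in each of them, with intervals that did not overlap at 1 h and in replicate 1 at 4 h. Gm19817 by itself was at 0.852 of the control in replicate 2 at 4 h (0.526 to 1.37). At 8 h it was at 1.22 (0.781 to 1.90), below the Dclk1 ratio of 1.64.

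The libraries were made from total RNA, and the share of reads that fell in no annotated gene also differed. It was 24.7% in the control, 29.0% at 1 h, 33.1% and 25.3% in replicates 1 and 2 at 4 h, and 30.9% at 8 h. Replicate 1, which had the highest Dclk1 level, had the highest share. Replicate 2 at 4 h had a lower share than the 1 h library but a higher Dclk1 level (1151 against 1016 normalized CPM). Whether unspliced RNA contributed to the Dclk1 counts was not tested. On the opposite strand, annotated exons covered 0.745% of the Dclk1 exon bases, and the genes there (Gm42609 and Gm21954) had at most 7 counts in a library.

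**Figure D2:**
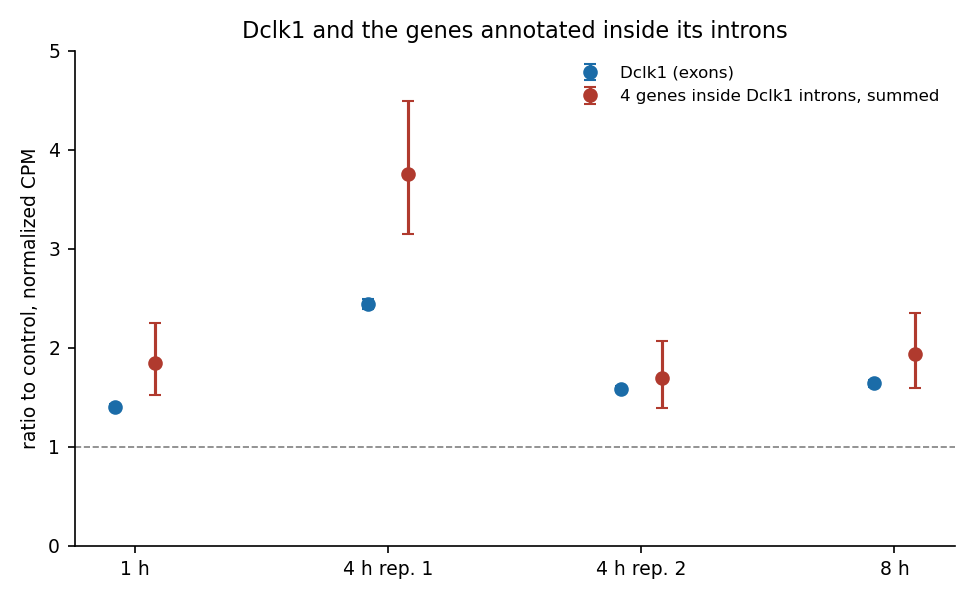
Ratio to the control in normalized CPM (y axis) for Dclk1 and for the sum of the 4 genes inside its introns in each kainic acid library (x axis); bars are exact binomial 95% intervals for counting error, and the dashed line marks the control. The intronic sum reached 3.75 in replicate 1 at 4 h, where Dclk1 reached 2.44.

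Among 10684 other genes with at least 100 counts in every library, the 5 nearest to Dclk1 in their log2 ratios to the control over the 4 kainic acid libraries were Pfkfb3, Shc4, Dlgap2, Stat3 and Grk5. Pfkfb3, a regulator of glycolysis, lay 0.09 away (root mean square difference, log2 scale), with ratios of 1.41 at 1 h, 2.24 and 1.71 in the 4 h replicates, and 1.60 at 8 h. Grk5, the fifth, lay 0.16 away. Within 0.2 of Dclk1 lay 20 genes, against 1652 for Dclk2, 1957 for Dcx and 0 for Dclk3. This number depends on how far a gene lies from the control, near which most genes lay. At 4 h Dclk2 and Dcx lay nearer to the control than Dclk1 and Dclk3.

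Dclk2 (ENSMUSG00000028078.14), on the minus strand of chromosome 3 from 86786151 to 86920852, was lower in both 4 h replicates than in the other 3 libraries. It had 1661 counts in the control (83.5 normalized CPM), 1463 at 1 h (83.2), 1084 and 1164 in replicates 1 and 2 at 4 h (64.4 and 61.6) and 1431 at 8 h (81.6). The 4 h replicates differed from each other by less than counting error, with a ratio of 1.05 (0.962 to 1.14), and each lay below the control beyond counting error, at 0.771 (0.714 to 0.833) and 0.738 (0.684 to 0.795). At 1 h and at 8 h the ratios of 0.997 (0.929 to 1.07) and 0.978 (0.911 to 1.05) did not differ from the control beyond counting error. Dclk2 was nominally below the control in all 4 kainic acid libraries, as were 20.6% of genes tested. For the 4 h pair the fit gave a log2 fold change of -0.41 ± 0.17 (SE), with an adjusted p of 0.435 from edgeR. Genes near to it in pattern included 1500004A13Rik (0.02 away on the log2 scale), Prkag1, Zscan26 and Srbd1.

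Dclk3 (ENSMUSG00000032500.10), on the plus strand of chromosome 9 from 111439081 to 111489118, had the widest range of the family as a ratio to the control. It had 395 counts in the control (19.8 normalized CPM), 285 at 1 h (16.2), 106 and 136 in replicates 1 and 2 at 4 h (6.30 and 7.19) and 600 at 8 h (34.2). Both 4 h replicates were thus the lowest libraries and the 8 h library was the highest. The ratio to the control was 0.817 at 1 h (0.699 to 0.954), 0.317 (0.254 to 0.394) and 0.362 (0.296 to 0.441) at 4 h, and 1.72 at 8 h (1.52 to 1.96). The pair at 4 h did not differ beyond counting error, with a ratio of 0.875 (0.673 to 1.14), and 48.0% of genes with a mean of at least 100 counts were at least as far apart.

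For Dclk3 the fit gave log2 fold changes from the control of -0.29 ± 0.29 (SE) for the 1 h library, -1.54 ± 0.24 for the 4 h pair and 0.78 ± 0.29 for the 8 h library. The adjusted p from edgeR was 1, 0.245 and 1.00. At 4 h, 0.309% of genes tested had a lower log2 fold change, and the unadjusted p was 0.00103. Between times, the log2 difference was 2.32 ± 0.24 for 8 h versus 4 h, where 0.172% of genes had a higher value, with an unadjusted p of 0.000126 and an adjusted p of 0.366. For 4 h versus 1 h it was -1.25 ± 0.25 (adjusted p = 0.424), and for 8 h versus 1 h it was 1.07 ± 0.29 (adjusted p = 0.748). With either 4 h library alone, the log2 fold change at 4 h was -1.45 (replicate 2) or -1.64 (replicate 1).

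The 5 genes nearest to Dclk3 in pattern were C1ql2, Grm2, Traip, Cacna1h and Islr2, at 0.21, 0.21, 0.40, 0.41 and 0.47 from it on the log2 scale. C1ql2, a secreted protein of mossy fibre synapses and a dentate granule neuron marker, had 584 counts in the control, 491 at 1 h, 186 and 221 in 4 h replicates 1 and 2, and 1019 at 8 h. Grm2, a metabotropic glutamate receptor, had 692, 553, 230, 199 and 1037 counts in the same order. Both, chosen by these same ratios, had their lowest counts in the 4 h replicates and their highest at 8 h.

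The dentate granule neuron markers lay on both sides of the control. At 4 h, 3 of 6 were at least 1.5-fold lower (10% of all genes) and 1 was higher (16.3%), and the median log2 fold change was -0.85 against 0.01 over all genes tested. By itself replicate 1 had 3 lower and 2 higher (15.9% and 20.2% of all genes), with a median log2 ratio of -0.80. Replicate 2 had 4 and 1 (9.75% and 12.7%), with a median of -1.42. At 8 h, 2 of the markers were lower (8.11% of all genes) and 1 was higher (12.7%), with a median log2 fold change of -0.08. Dsp, a desmosomal protein, had 1437 counts in the control, 73 and 257 in the 4 h replicates, and 1201 at 8 h. Prox1, the transcription factor that marks granule neurons and the most abundant of the list over the 5 libraries though not in the control, had 1194, 2889 and 2263 counts in the control and the 4 h replicates. The 6 markers summed to 323 normalized CPM in the control, 321 at 1 h, 294 and 237 in the 4 h replicates, and 315 at 8 h. None of the 6 was at 0 in the control, and their part in the Dclk3 values was not tested. The 8 CA pyramidal neuron markers, led by Cpne7, summed to 681, 565, 420, 533 and 493 normalized CPM in the control, 1 h, 4 h replicates 1 and 2, and 8 h libraries.

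**Figure D3:**
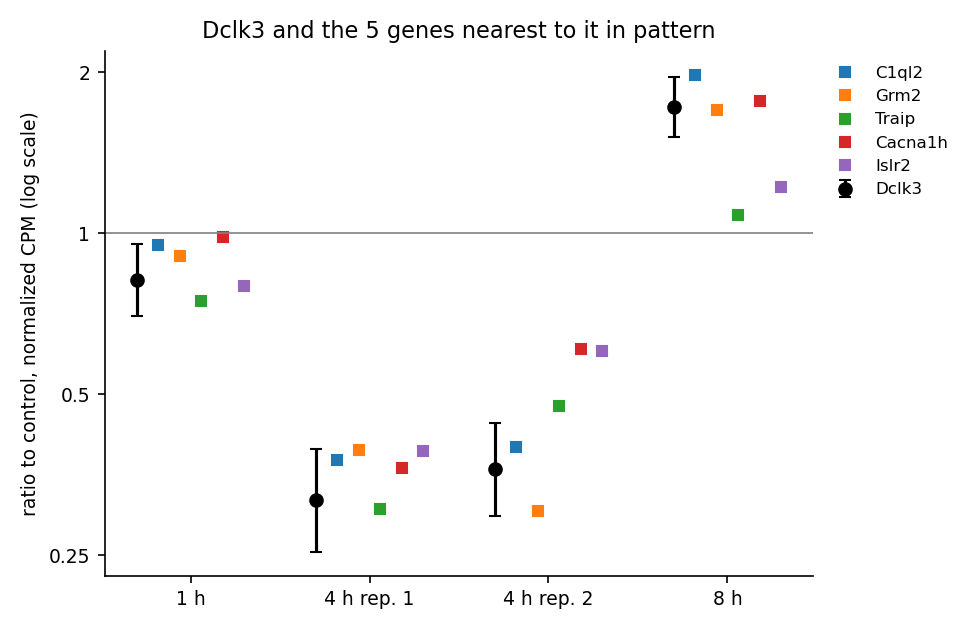
Ratio to the control in normalized CPM (y axis, log scale) in the 4 kainic acid libraries (x axis) for Dclk3, with exact binomial 95% intervals for counting error, and for the 5 genes nearest to it. All 6 genes were below the control in both 4 h replicates and above it at 8 h, where Traip was at 1.08. The 5 genes were chosen by these same ratios, so a shared shape follows from the choice.

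Dcx (ENSMUSG00000031285.14), on the minus strand of the X chromosome from 143855842 to 143933311, had the lowest level per length in every library. By count it was the lowest in the control, 1 h and 8 h libraries, and Dclk3 was lower in both 4 h replicates. It had 251 counts in the control (12.6 normalized CPM), 247 at 1 h (14.1), 201 and 196 in replicates 1 and 2 at 4 h (11.9 and 10.4) and 226 at 8 h (12.9). The order ran from 4 h, the lowest, through the control and 8 h to 1 h, and the intervals of neighbours overlapped. Of the 4 ratios to the control, only that of replicate 2 at 4 h lay outside counting error, at 0.822 (0.678 to 0.995). The fit gave log2 fold changes of 0.15 ± 0.31 (SE), -0.18 ± 0.27 and 0.03 ± 0.31 for 1, 4 and 8 h, with adjusted p of 1, 0.820 and 1.00 (edgeR). No difference was detectable in the fit. The nearest genes to Dcx in pattern were Clk3 (0.03 away on the log2 scale), Plod3, St6galnac3, C2cd5 and Gm1976.

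Across the family, 0 of 4 members passed an adjusted p of 0.05 at any time in edgeR's quasi-likelihood test, and 0 of 4 in limma-voom. DESeq2 called 1 of 4, Dclk3 at 4 h (adjusted p = 0.0497). There it called 233 genes among all and gave no adjusted p to 5366 of 19768. Among all genes edgeR called 0 at 1 h (0%), 1 at 4 h (0.00506%) and 0 at 8 h (0%) compared with untreated hippocampus, while 478, 2291 and 892 genes had an unadjusted p under 0.05; DESeq2 called 49, 233 and 32 and limma-voom 0 at each time. Between times, 0 of 4 members passed in edgeR, DESeq2 called Dclk3 for 8 h versus 4 h (adjusted p = 0.000163), and among all genes edgeR called 1 gene for 4 h versus 1 h (0.00506%), 0 for 8 h versus 4 h (0%) and 0 for 8 h versus 1 h (0%); at an unadjusted p under 0.05 these were 1569, 1726 and 1164 genes, and DESeq2 called 103, 132 and 70 and limma-voom 0 in each. By size, 0 members were at least 1.5-fold higher at 1 h (9.65% of genes tested) and 0 were at least 1.5-fold lower (8.01%). At 4 h, Dclk1 was at least 1.5-fold higher (16.3% of genes) and Dclk3 at least 1.5-fold lower (10% of genes), with either 4 h library as well as with both. At 8 h, Dclk1 and Dclk3 were at least 1.5-fold higher (12.7% of genes) and 0 members were at least 1.5-fold lower (8.11%). The 3 comparisons share the control library.

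**Figure D4:**
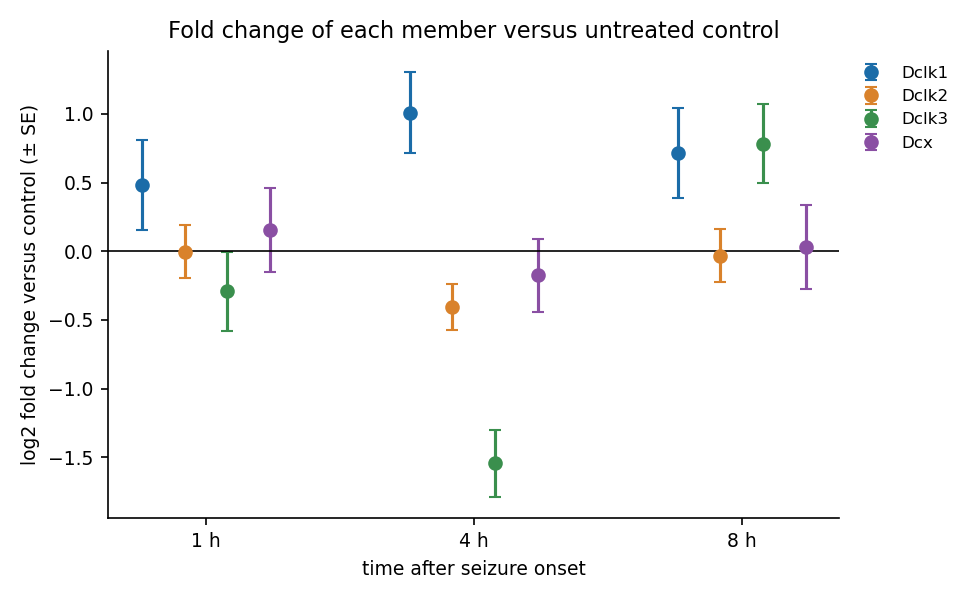
Log2 fold change of each member against the control with its SE from the edgeR fit (y axis) at 1 h, 4 h and 8 h after seizure onset (x axis). At 4 h Dclk1 was at 1.01 and Dclk3 at -1.54, and at 8 h they were at 0.71 and 0.78.

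Levels were compared between members per kilobase of annotated exon, taking the union of exons of each gene (15296 bases for Dclk1, 10553 for Dclk2, 3005 for Dclk3 and 12647 for Dcx). In the control, Dclk1 stood at 47.5 normalized CPM per kilobase, Dclk2 at 7.91, Dclk3 at 6.60 and Dcx at 0.997. Dclk1 thus made up 75.4% of the family, Dclk2 12.5%, Dclk3 10.5% and Dcx 1.58%. The Dclk1 share was 82.2% at 1 h, 92.7% and 89.3% in replicates 1 and 2 at 4 h, and 79.5% at 8 h. Dclk3 made up 1.67% and 2.84% of the family in the 4 h replicates and 11.6% at 8 h, where it was above Dclk2 (7.88%). Per length, Dclk1 was 7.20 times Dclk3 in the control, 55.4 and 31.4 times in the 4 h replicates, and 6.85 times at 8 h. By the longest transcript these ratios were 13.8, 106, 60.4 and 13.2. With either length the ratio was thus similar in the control and 8 h libraries, where both levels were higher at 8 h. These shares have no test.

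**Figure D5:**
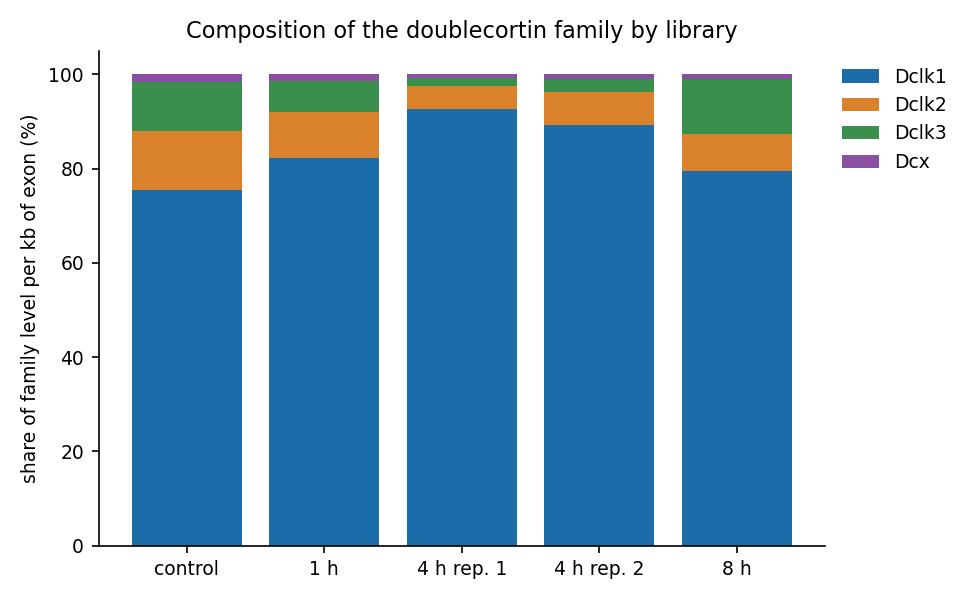
Share of each member in the summed family level per kilobase of exon, in percent (y axis), in each library (x axis). Dclk1 made up 75.4% in the control and 92.7% and 89.3% in the 4 h replicates.

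Other genes with doublecortin domains were scarce. Of 7 such genes 6 were listed and 3 were tested. Dcdc2a, a ciliary protein and the most abundant, had 210 counts in the control, 164 at 1 h, 135 and 181 in the 4 h replicates and 157 at 8 h, and Dcdc2b had 82, 64, 45, 42 and 93. Dcdc5, with 24, 9, 16, 31 and 29 counts, was the tested gene at least 1.5-fold lower at 1 h (8.01% of all genes), and Dcdc2b was the gene at least 1.5-fold lower at 4 h (10%). The 3 tested genes had median log2 fold changes of -0.18, -0.26 and 0.36 for 1, 4 and 8 h.

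Genes of immature neurons were read beside Dcx. Of 23 genes, all tested, 8 were at least 1.5-fold higher at 4 h (16.3% of all genes) and 3 at least 1.5-fold lower (10%), with a median log2 fold change of 0.09 against 0.01 over all genes tested; 0 of 23 passed an adjusted p of 0.05 at any time in edgeR. By itself replicate 1 had 8 higher and 3 lower (20.2% and 15.9% of all genes), and replicate 2 had 6 and 3 (12.7% and 9.75%). At 1 h the counts were 2 and 2 (9.65% and 8.01% of all genes) with a median of -0.03, and at 8 h 5 and 6 (12.7% and 8.11%) with a median of 0.05. Sox11, a transcription factor of newborn neurons, had 598 counts in the control, 591 at 1 h, 2450 and 2136 in the 4 h replicates and 1839 at 8 h (log2 fold change at 4 h of 2.10 ± 0.24, adjusted p = 0.242). Igfbpl1 had 13, 21, 46, 113 and 46 counts in the same order. Neurod1, which promotes granule neuron differentiation, had 298, 137, 141, 115 and 144. The most abundant of the list, Ncam1, Tubb3 and Nnat, had log2 fold changes at 4 h of 0.03, -0.08 and 0.09. Several of these genes, among them Ncam1, Tubb3 and Prox1, are also made by mature neurons.

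Among 15 progenitor and proliferation genes, 4 were at least 1.5-fold higher (16.3% of all genes) and 1 lower (10%) at 4 h, with a median log2 fold change of 0.05 and the same counts in replicate 1 (20.2% and 15.9%) and replicate 2 (12.7% and 9.75%) by itself; the counts were 2 and 2 at 1 h (9.65% and 8.01% of all genes; median -0.03) and 3 and 2 at 8 h (12.7% and 8.11%; median 0.01). Vim, an intermediate filament of progenitors and reactive astrocytes, had 491 counts in the control, 1260 and 1032 in the 4 h replicates and 1052 at 8 h. Mki67, a marker of dividing cells, had 48 counts in the control, 46 at 1 h, 67 and 81 in the 4 h replicates and 47 at 8 h. Ccnd2, the most abundant of the list over the 5 libraries, had 1724 counts in the control and 907 at 8 h, and Id4, the next, had 1172 and 695. Hes5, a Notch target, had the lowest value of the list, with 109 counts in the control, 35 at 1 h, 28 and 71 in the 4 h replicates and 29 at 8 h.

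Other proteins that bind microtubules, as Dclk1 does, were counted in the same way. Of 22 microtubule associated proteins tested, 1 was at least 1.5-fold higher at 1 h (9.65% of all genes), 2 were higher (16.3%) and 1 lower (10%) at 4 h, and 0 were past that size at 8 h. By itself replicate 1 had 4 higher and 1 lower (20.2% and 15.9%), and replicate 2 had 1 and 0 (12.7% and 9.75%); the medians were 0.06, 0.02 and -0.01 on the log2 scale. Stmn4, a stathmin that destabilises microtubules, had 1653 counts in the control, 2583 at 1 h, 5419 and 4237 in the 4 h replicates and 1939 at 8 h (log2 fold change at 4 h of 1.72 ± 0.27, adjusted p = 0.245). Mapre1, which tracks microtubule plus ends, was the other higher gene at 4 h (0.64 ± 0.24), and Camsap3, which binds minus ends, was the lower (-0.70 ± 0.29). Map2, Map1b and Map1a, the most abundant over the 5 libraries, had log2 fold changes at 4 h of 0.40, 0.48 and 0.01. Of 11 tubulins, 1 was at least 1.5-fold higher at each time (9.65%, 16.3% and 12.7% of all genes) and 0 were lower (8.01%, 10% and 8.11%), and the medians were -0.03, -0.05 and -0.14. That gene, Tubb6, had only 6 counts in the control, with 44 at 1 h, 218 and 75 in the 4 h replicates and 81 at 8 h. Tubb2a, Tuba4a and Tubb5, the most abundant tubulins, had log2 fold changes at 4 h of -0.03, 0.07 and -0.15, and Tubg1 had the lowest value of the list (-0.43 ± 0.24).

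Of 16 tested genes of the LIS1 complex, dynein and kinesins, 0, 1 and 0 were at least 1.5-fold higher at 1, 4 and 8 h (9.65%, 16.3% and 12.7% of all genes) and 0 were lower (8.01%, 10% and 8.11%), with medians of 0.08, 0.03 and -0.03; by itself replicate 2 had 0 past that size. Ndel1, a dynein regulator, was that gene, with 1531 counts in the control, 1975 at 1 h, 2610 and 2056 in the 4 h replicates and 1600 at 8 h. Pafah1b1, which encodes LIS1, had a log2 fold change of 0.15 at 4 h, and Kif5a, Dync1h1 and Kif5c, the most abundant motors of the list, of -0.03, -0.02 and 0.06. Dync1i1, a dynein intermediate chain, had the lowest value of the list, -0.53 ± 0.18 at 8 h. Of 20 kinases, phosphatases and their activators or scaffolds reported to act on doublecortin, 0, 1 and 0 were at least 1.5-fold higher at the 3 times and 0 were lower, beside the same shares of all genes, with medians of 0.07, -0.05 and -0.09; here too replicate 2 by itself had 0. Ppp2ca, a catalytic subunit of protein phosphatase 2A, was that gene (0.71 ± 0.21), and Cdk5 was at -0.22 ± 0.17 at 4 h and -0.43 ± 0.19 at 8 h, the lowest of the list. Ppp1r9b and Ppp1r9a, abundant scaffolds of protein phosphatase 1, were at -0.13 and -0.27 at 4 h.

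The list of kinases related to the kinase domain of Dclk1 held 12 genes, of which Caskin1 is a scaffold protein with no kinase domain. At least 1.5-fold higher were 0 of 12 at each time, beside 9.65%, 16.3% and 12.7% of all genes tested, and at least 1.5-fold lower were 0, 1 and 1, beside 8.01%, 10% and 8.11%. The medians were 0.02, -0.23 and -0.39. Caskin1, the lower gene at 4 h, had 1935 counts in the control and 879 and 1050 at 4 h. Pnck, the lower gene at 8 h, had 1131 counts in the control, 793 at 1 h, 708 and 773 in the 4 h replicates and 430 at 8 h (log2 fold change at 8 h of -1.21 ± 0.22, adjusted p = 0.868). Camkv, the most abundant, was at -0.37 ± 0.17 at 4 h, with Camkk1 and Camk1d, the next, at 0.19 and -0.12. Camkk1 had the highest value of the list, 0.45 ± 0.26 at 8 h. Among all genes tested, medians were -0.01, 0.01 and 0.01 at the 3 times.

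Marker lists of other cell types and regions were summed to show what else differed beside the family. The 7 interneuron markers, led by Gad1, summed to 538 normalized CPM in the control, 600 at 1 h, 884 and 755 in the 4 h replicates, and 604 at 8 h. The 7 astrocyte markers, led by Aldoc, summed to 1689, 1817, 2390, 2217 and 2100 in the same order, and Gfap, an astrocyte filament, had 4400, 4776, 10034, 9647 and 10297 counts. The 6 oligodendrocyte markers, led by Mbp, summed to 3162, 3952, 3732, 4794 and 3196. The 6 markers of oligodendrocyte precursors, led by Bcas1, summed to 284, 322, 304, 373 and 297.

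The 6 markers of endothelium and pericytes, led by Flt1 over the 5 libraries and by Slco1a4 in the control, summed to 141, 131, 141, 119 and 147 normalized CPM in the control, 1 h, 4 h replicates 1 and 2, and 8 h libraries. The 6 ependyma markers, led by Foxj1, summed to 26.5, 20.8, 12.9, 44.3 and 25.3. The 6 striatum markers, led by Ppp1r1b, summed to 60.3, 55.5, 63.7, 84.0 and 65.7, and the 6 neocortex markers, led by Fezf2 over the 5 libraries and by Lamp5 in the control, to 111, 131, 188, 109 and 99.3. No marker of these lists was at 0 in the control.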

How the data were processed

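Gene counts were those deposited by the authors, who mapped reads of total RNA libraries (TruSeq stranded kit) with STAR 2.5.1b to GRCm38.p4 and counted them with HTSeq, per the submitters' processing notes; the labels and methods at hand state neither the HTSeq version nor its strand setting. The summary rows were left out of library sizes: reads in no gene made up 24.7% to 33.1% of all reads per library, ambiguous reads 1.26% to 1.52% and reads with several alignments 9.67% to 11.6%.

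Counts were filtered with filterByExpr, scaled by TMM and fitted with the quasi-likelihood test of edgeR 4.0.16 (R 4.3.3) over all 5 libraries in 4 groups, which leaves 1 residual degree of freedom. Log2 fold changes used a prior count of 2, and their SE came from the unshrunk coefficient and F. In this edgeR fit p-values were adjusted over 19768 genes (Benjamini-Hochberg). DESeq2 1.42.0, limma 3.58.1 (voom), other scalings, other filters and leaving out each 4 h library were alternatives. The 4 h libraries differed by far more than sampling noise (chi-square 32.1 per degree of freedom). Intervals are 95% and cover counting error only. Scripts were tested on simulated data.

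Lengths and overlaps came from GENCODE M21, where 55144 of 55385 identifiers were found, and sequences from RefSeq, which held windows for 3 of 4 members. Named genes were the members, other genes of the lists with at least the 3 most abundant of each gene list and its largest rise and fall among genes with at least 50 counts in some library, genes on the bases of a member with at least 10 counts in some library, and for each member the 5 genes nearest in pattern among those with at least 100 counts in every library. A few genes these rules take, and the lists that rest on them, are not reported here. Members and lists were chosen with earlier results of these data known.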

Additional observations from a re-analysis of the deposited data

Results flagged for a closer look

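Dclk3 lay on opposite sides of the control at different times: below it in both 4 h replicates and at 1 h, and above it at 8 h. The log2 difference was 2.32 for 8 h versus 4 h and 1.07 for 8 h versus 1 h, and neither passed the edgeR threshold over all genes (adjusted p = 0.366 and 0.748).

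Dcx lay nominally above the control at 1 h and 8 h and below it in both 4 h replicates. Only the ratio of replicate 2 at 4 h, 0.822 (0.678 to 0.995), lay outside counting error. The log2 difference was -0.33 for 4 h versus 1 h and 0.21 for 8 h versus 4 h, with adjusted p of 0.776 and 0.851 (edgeR). Without replicate 1 at 4 h the difference for 8 h versus 4 h was 0.31, and without replicate 2 it was 0.11.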

How the results depend on the processing

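Counts of genes called depended on the tool and filter. Against 0 genes at 1 h, library size alone called 57, DESeq2 49, no filter on low counts 285 and a filter of at least 10 counts in every library 1. Against 1 gene at 4 h, median-of-ratios factors called 0, library size alone 237, DESeq2 233, limma-voom 0, no filter 1300 and the filter of 10 counts 0. Against 0 genes at 8 h, library size alone called 22, DESeq2 32 and no filter 279. The cause was not tested.

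Under other settings that keep the 4 conditions apart, 168 values of a member had an adjusted p. Of these, 158 kept their direction and their side of the threshold. A further 72, with another prior count or without a 4 h library, have no test. At 4 h versus control, Dclk1 passed with no filter (log2 fold change 0.995, adjusted p = 1.37e-05), and Dclk3 passed with library size alone (-1.66, adjusted p = 0.0218), DESeq2 (-1.55, adjusted p = 0.0497) and no filter (-1.55, adjusted p = 1.51e-05). Dclk3 passed for 8 h versus 4 h with library size alone (2.46), DESeq2 (2.34) and no filter (2.32), and for 4 h versus 1 h with no filter (-1.26). These settings called more genes in general. At 4 h versus control they called 237 (library size alone) and 233 (DESeq2) of 19768 genes, and 1300 of 32732 with no filter. DESeq2 called 132 for 8 h versus 4 h. Genes called between times were not counted for library size alone or no filter. The Dclk2 difference of -0.03 for 8 h versus 1 h turned to 0.0635 with library size alone and to 0.002 with the filter of 10 counts. The Dclk1 difference of -0.30 for 8 h versus 4 h, which has no test without a 4 h library, was 0.05 without replicate 1 and -0.57 without replicate 2. Over the settings that keep the 4 conditions apart, the log2 fold change at 4 h ran from 0.66 to 1.29 for Dclk1, -0.53 to -0.37 for Dclk2, -1.66 to -1.45 for Dclk3 and -0.30 to -0.08 for Dcx; the ends for Dclk1 were the fits without replicate 1 and without replicate 2. With library size alone, the median of all genes was -0.11 at 4 h versus control and 0.12 at 8 h versus 4 h.

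With the 4 kainic acid libraries as 1 group, the log2 fold change was 0.82 for Dclk1, -0.20 for Dclk2, -0.31 for Dclk3 and -0.03 for Dcx, and 0 genes were called. In that fit the spread also takes in differences between times. By the longest transcript, Dclk1 made up 83.3% of the family in the control, 88.1% at 1 h, 95.1% and 92.8% in the 4 h replicates and 86.7% at 8 h. The counts of lists in each 4 h replicate by itself were chosen after seeing the data, as were the sum without Gm25132, the stricter letters TGAGTCA and the counts of all genes: counts of genes at least 1.5-fold lower at 4 h were 1928 without replicate 1 and 3138 without replicate 2, against 1982, and of genes at least 1.5-fold higher 2517 and 3992, against 3214. No paired analysis was possible because only the 4 h group had replicates. A single library at 3 of 4 conditions limits every comparison.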
